A study of Saccharomyces cerevisiae with 39 samples.

Results

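The proteasome subunit genes of budding yeast (Saccharomyces cerevisiae) were followed through 13 diploid strains that differ in Pho92, the yeast reader of N6-methyladenosine (m6A) marks on mRNA. The set was taken by gene symbol alone. It holds SCL1, PRE1 to PRE10, PUP1 to PUP3, RPT1 to RPT6 and RPN1 to RPN13 without RPN4, and these are 32 of the 6186 features in the deposited count table. RPN4, which encodes the transcription factor of these genes and no subunit, is given beside them. All 32 subunit genes and RPN4 passed the filter on low counts, as did 5840 features in all.

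The libraries were made from polyadenylated RNA of cells moved to sporulation medium, with 50 µM copper sulphate added 3 h later, and each strain has 3 libraries, 39 in all. The protocols speak of early-meiotic arrest and of degron strains, the genotypes list no allele for either, and the labels used here give no time of collection. The title of the series asks which parts of the disordered region of Pho92 are needed for m6A-dependent mRNA turnover. All strains are MATa/alpha, carry trp1::hisG, his3::hisG and leu2::hisG, and are also ura3, lys2 and ho::LYS2. WT keeps its own PHO92 and pho92_null has none. CUP1_WT and 10 variant strains lack the endogenous gene (hyg::pho92) and carry HA-tagged PHO92 at trp1 under the copper-induced CUP1 promoter, so that they make Pho92 from a foreign promoter and not at the native level. In W5A, W18A, W177A and W5A_W18A, tryptophans at the named residues are replaced by alanine. The strains named del1_70, del28_52, del110_155 and del28_52_130_155 each lack the residues between the numbers in their names. W5A_W18A_del28_52 combines both substitutions with a single deletion, and W5A_W18A_del28_52_110_155 has, by its titles, both substitutions and 2 deletions, while its genotype lists the deletions alone. No label says that the 3 libraries of a strain came from separate cultures, so the spread between them may be technical. Outside the fits of only the strains compared, p-values and standard errors use this spread pooled for each gene over all strains. The SD of the subunit level given below ran from 0.042 in CUP1_WT to 0.34 in pho92_null. Pooled standard errors can thus be too small for strains with widely spread libraries, such as pho92_null, and too large for others.

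The 26S proteasome is the particle that degrades proteins tagged with ubiquitin. Its 20S core is a stack of alpha and beta rings with the proteolytic sites inside the beta rings. The 19S cap consists of a base, whose ATPases unfold the substrate, and a lid, which holds the enzyme that removes the ubiquitin chain. In yeast the subunit genes share an upstream element, named PACE, that is bound by Rpn4, and Rpn4 is itself a short-lived substrate of the proteasome. Protein degradation is known to be needed for the passage of yeast cells through meiosis.

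The element was looked for as GGTGGCAAA on both strands of the 300 bases before each start codon, in the RefSeq genome of the reference strain (R64), which is not stated to be the build behind the counts. It was present before 27 of the 32 subunit genes, or 84.38%, and before 73 of all 6007 nuclear coding genes, or 1.22%. In the 27 it lay between 75 and 174 bases before the start codon with a median of 111, and it was on the strand of the gene in 19 and on the opposite strand in 8. Neither RPN4 nor PRE5, PUP1, RPN8, RPN10 and RPN13 held these letters in the window. The stretches of 5 subunit genes that hold the element and whose library values are given below are shown on the strand of the gene, with the element in capitals:
PRE2: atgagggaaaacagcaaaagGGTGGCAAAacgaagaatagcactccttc
PRE3: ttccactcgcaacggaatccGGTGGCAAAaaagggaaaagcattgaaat
RPT5: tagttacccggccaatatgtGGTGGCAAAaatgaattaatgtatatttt
RPN2: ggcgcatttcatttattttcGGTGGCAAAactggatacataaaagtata
RPN11: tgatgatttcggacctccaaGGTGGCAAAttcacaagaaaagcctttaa
They lie at chrXVI:732174-732222 on the plus strand for PRE2, chrX:435025-435073 on the plus strand for PRE3, chrXV:544845-544893 on the plus strand for RPT5, chrIX:220791-220839 on the minus strand for RPN2 and chrVI:153249-153297 on the plus strand for RPN11. The 32 genes are spread over 13 chromosomes, 1 of them (PRE3) has an intron in its coding sequence, and none overlaps another annotated gene.

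Library totals ran from 15928411 to 37186964 counts, and the lowest count of any subunit gene in any library was 2646, for RPN13. PHO92 itself ran from 0.0919 to 2.37 counts per 1e+06 counts (CPM) in pho92_null, from 802 to 1054 in WT, and from 5384 to 16626 in the copper-induced strains, with W5A and W5A_W18A at 12749 or more and W5A_W18A_del28_52_110_155 at 5682 or less. All 10 middle-meiosis markers, 10 early-meiosis markers, 5 vegetative markers and 6 haploid-cell markers had a count in every library. The levels differed widely, with marker medians of 247 to 4349 CPM for early meiosis and 84.8 to 1227 for middle meiosis. They were 14.4 to 26.7 CPM for vegetative and 0.256 to 37.7 for haploid markers, of which MFA2 and MF(ALPHA)2 fell to 1 count. A pair of libraries stand apart within their strains, replicate 1 of pho92_null with a high subunit level and replicate 3 of del110_155 with the lowest early-meiosis, middle-meiosis and haploid sums and the highest vegetative sum of all libraries. RNA was taken from whole cultures, in which fewer cells of a kind and less RNA per cell cannot be told apart.

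Per kilobase of coding sequence the subunit genes lay within a narrow band. In WT the highest was RPT1, an ATPase of the base, at 931 ± 31.9 CPM per kilobase (SD, n = 3). The lowest was RPN7, a structural subunit of the lid, at 394 ± 9.01. RPN4 lay below all of them at 287 ± 32.8. Together the 32 genes took between 1.22% and 2.27% of a library's counts, with a median of 1.85%.

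The mean log2 CPM over the 32 genes gives 1 level per library. It was 9.18 ± 0.055 (SD, n = 3) in WT, 9.25 ± 0.042 in CUP1_WT and 9.25 ± 0.069 in W18A. It was 8.69 ± 0.34 in pho92_null, 8.71 ± 0.20 in W5A, 8.78 ± 0.054 in W5A_W18A and 8.66 ± 0.32 in del110_155. The other 6 strains lay between these groups, from 8.92 ± 0.19 in W5A_W18A_del28_52 to 9.12 ± 0.14 in del1_70. The order of the strains within each of these groups is not resolved by the spread between libraries. Taking each subunit gene by itself, the highest strain mean was in CUP1_WT for 15 genes, in W18A for 10 and in WT for 4, and the lowest was in del110_155 for 16, in pho92_null for 10 and in W5A for 6.

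**Figure D1:**
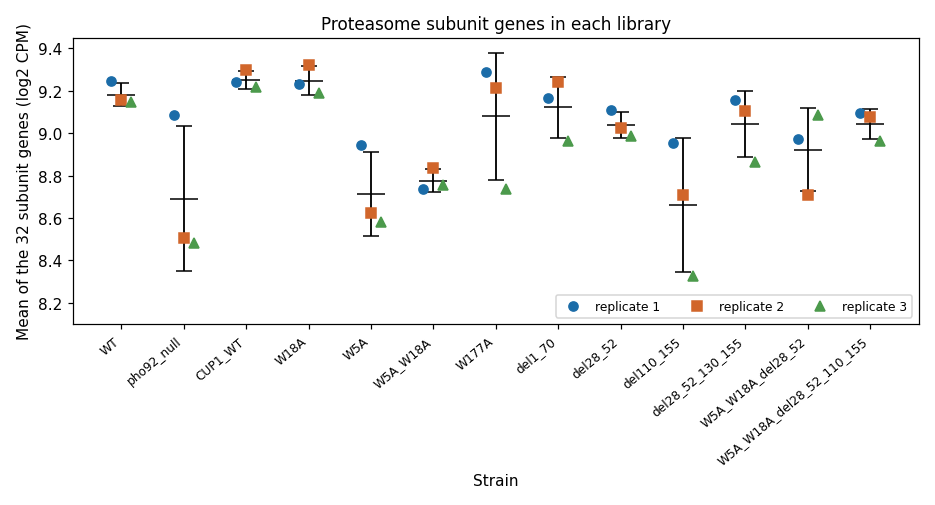
Mean log2 CPM of the 32 subunit genes in each library (y axis) by strain (x axis). Symbols mark the replicate number, and bars show the mean and SD of 3 libraries. WT, CUP1_WT and W18A are high and tight, while pho92_null, W5A, W5A_W18A and del110_155 are low, with replicate 1 of pho92_null at 9.09 against 8.51 and 8.48.

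The strains with the lowest subunit level were also those with the least middle-meiosis RNA. The summed CPM of the 10 middle-meiosis markers, among them NDT80, which encodes the transcription factor of that stage, ran from 4430 to 16182 in WT, from 4340 to 19150 in CUP1_WT and from 3687 to 16544 in W18A. It ran from 811 to 3512 in pho92_null, from 622 to 1305 in W5A, from 730 to 1057 in W5A_W18A and from 253 to 1236 in del110_155. In pho92_null the library with the highest subunit level, replicate 1, was also that with the highest middle-meiosis sum. The order of libraries differed elsewhere. Replicate 2 of W5A_W18A_del28_52 had 6623 CPM of middle-meiosis transcripts and a subunit level of 8.71, and replicate 3 of that strain had less, 4666, and a higher level, 9.09. Replicate 1 of W5A_W18A_del28_52_110_155, at 14279 CPM, had a level of 9.09, below the 9.29 of replicate 1 of W177A at 5909 CPM. The haploid sum was 29.5 and 34.6 CPM in replicates 2 and 3 of pho92_null against 70.2 in replicate 1. In CUP1_WT against pho92_null, 4 of 6 haploid markers were called higher, where 39.9% of all genes were called, 19.2% higher and 20.8% lower. In the same comparison 9 of 10 middle-meiosis and 1 of 10 early-meiosis markers were called higher. Of the 5 vegetative markers, 1 was called higher and 1 lower. Over all libraries the early-meiosis sum ran from 4612 to 24457 CPM, the haploid sum from 27.2 to 95.4 and the vegetative sum from 77.5 to 145. The part of meiotic stage, and of the level of PHO92 RNA, in the differences between strains was not tested.

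**Figure D2:**
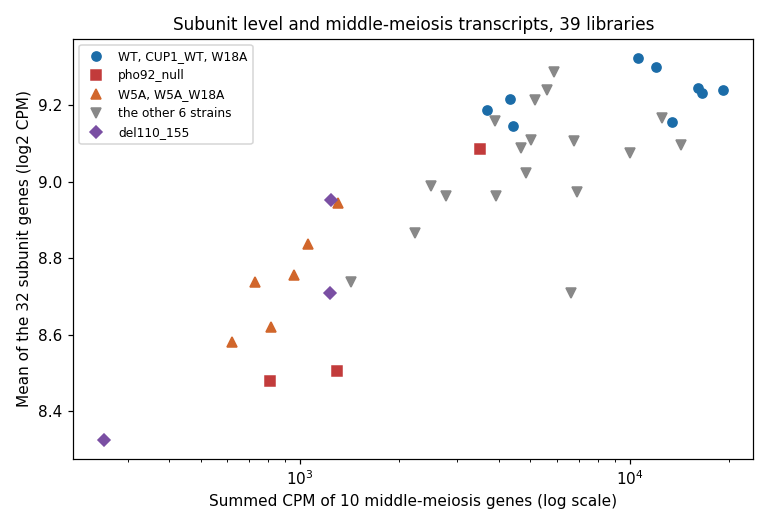
Mean log2 CPM of the 32 subunit genes (y axis) against the summed CPM of 10 middle-meiosis genes (x axis, log scale), 1 point per library, 39 in all. The libraries of W5A, W5A_W18A and del110_155 lie at the lower left, at 1305 CPM or less, and those of WT, CUP1_WT and W18A at the upper right, at 3687 CPM or more.

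Loss of PHO92 was asked about in the comparisons of WT and of CUP1_WT with pho92_null, which share the pho92_null libraries. Most subunit genes were higher in WT and in CUP1_WT than without Pho92. In CUP1_WT against pho92_null, 27 of 32 were called higher and none lower at an adjusted p under 0.05 (limma, adjusted over 5840 genes), where 39.9% of all genes were called, 19.2% higher and 20.8% lower. The median log2 change of the 32 genes was 0.59, and that of all genes was -0.03. In WT against pho92_null, 23 of 32 were called higher and none lower, where 33.2% of all genes were called, 14.8% higher and 18.4% lower. The median there was 0.49, against -0.04 over all genes.

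The lid rose as a whole. Its 8 measured genes were all called higher in both comparisons, with medians of 0.70 in CUP1_WT and 0.65 in WT. RPN12, a lid subunit, rose by 0.84 ± 0.18 (log2, SE) in CUP1_WT, and RPN11, the enzyme that cuts the ubiquitin chain from the substrate, rose by 0.77 ± 0.14 (adjusted p = 0.00015). RPN11 was at 493, 513 and 498 CPM in the CUP1_WT libraries and at 393, 248 and 261 in pho92_null, and the groups did not overlap. Of the 4 base subunits without ATPase activity, 3 were called higher in CUP1_WT, with RPN2, a scaffold of the base, at 0.74 ± 0.16. RPN13, a ubiquitin receptor, was not called, at 0.28 (adjusted p = 0.165).

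Of the 6 base ATPases, 5 were called higher in each of the comparisons, led by RPT3 at 0.71 ± 0.15 in CUP1_WT. RPT5 was called in neither, at -0.32 in CUP1_WT and -0.05 in WT, and is described on its own below. In the core, 5 of the 7 alpha-ring genes and 6 of the 7 beta-ring genes were called higher in CUP1_WT, with medians of 0.46 and 0.66. The alpha ring is structural and gates the core, and its greatest change was that of PRE8, at 0.69 ± 0.18.

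The beta ring holds the proteolytic sites, and its 3 active subunits did not all pass. PRE2, which encodes the chymotrypsin-like subunit, was at 737, 687 and 685 CPM in CUP1_WT, at 657, 572 and 559 in WT and at 506, 368 and 315 in pho92_null. Every CUP1_WT and WT library lay above every pho92_null library, and the rise of 0.86 ± 0.18 in CUP1_WT (adjusted p = 0.000633) was the greatest among the 32 genes. In WT the rise was 0.61 ± 0.18 (adjusted p = 0.0127), a call lost without replicate 1 of WT (0.0627) or replicate 2 (0.0568) or replicate 3 (0.0862) of pho92_null.

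PRE3, the caspase-like subunit, was at 470, 475 and 450 CPM in CUP1_WT, at 461, 422 and 389 in WT and at 428, 250 and 233 in pho92_null. Replicate 1 of pho92_null overlapped WT, and the change was called in CUP1_WT (0.67 ± 0.22, adjusted p = 0.0172) and not in WT (0.53 ± 0.22, adjusted p = 0.0607). PUP1, the trypsin-like subunit, was at 411, 436 and 441 CPM in CUP1_WT, at 430, 426 and 470 in WT and at 463, 274 and 295 in pho92_null. Here replicate 1 of pho92_null was above every CUP1_WT library, and neither comparison was called, with 0.36 ± 0.18 in CUP1_WT (adjusted p = 0.104) and 0.40 ± 0.18 in WT (adjusted p = 0.0793).

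These counts rest on the pho92_null libraries. The difference in subunit level between CUP1_WT and pho92_null libraries of the same number was 0.16 for number 1, 0.79 for number 2 and 0.74 for number 3, and that between WT and pho92_null was 0.16, 0.65 and 0.67. Without replicate 2 or without replicate 3 of pho92_null the CUP1_WT count fell to 17, and the WT count fell to 5 and 7, and to 13 without replicate 1 of WT. A fit of only the 6 libraries compared called 9 subunit genes in CUP1_WT and 1 in WT. Calls over all genes fell as well in that fit, from 2332 to 940 in CUP1_WT and from 1939 to 427 in WT.

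**Figure D3:**
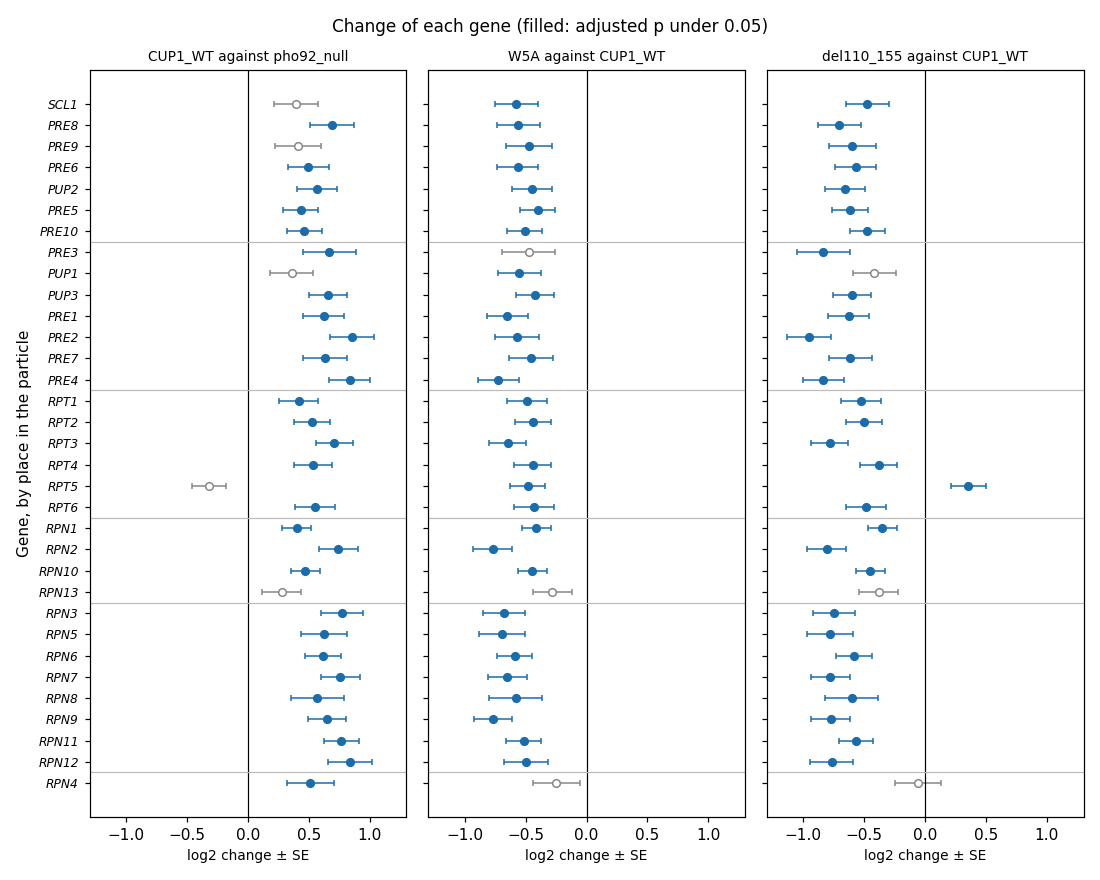
Log2 change with its standard error (x axis) of each subunit gene and RPN4 (y axis, ordered by place in the particle) in CUP1_WT against pho92_null, W5A against CUP1_WT and del110_155 against CUP1_WT. Filled points passed an adjusted p of 0.05. RPT5 lies at -0.32 and 0.35 in the first and last panels, on the other side of 0 from the other 31 subunit genes.

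RPN4 was at 517, 439 and 418 CPM in WT, at 432, 520 and 482 in CUP1_WT and at 387, 290 and 332 in pho92_null. All WT and CUP1_WT libraries were above those of pho92_null. The change was 0.51 ± 0.19 in CUP1_WT (adjusted p = 0.0334) and 0.45 ± 0.19 in WT (adjusted p = 0.0682). The call in CUP1_WT was lost without replicate 2 of pho92_null (adjusted p = 0.148), replicate 3 of pho92_null (0.075) or replicate 2 of CUP1_WT (0.093), and in the fit of only the 6 libraries (0.0547). The 5 subunit genes without the searched element changed by 0.43 (PRE5), 0.36 (PUP1), 0.57 (RPN8), 0.47 (RPN10) and 0.28 (RPN13) in CUP1_WT, and PRE5, RPN8 and RPN10 of these were called.

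In a pair of comparisons no subunit gene passed the test. In CUP1_WT against WT, which sets the induced level of PHO92 against the native one, limma called 0 of the 32 genes, 0 had an unadjusted p under 0.05 and limma-voom called 0, where 1.66% of all genes were called, 1.13% higher and 0.531% lower. Of all 5840 genes, 614 had an unadjusted p under 0.05. The median was 0.07 and 24 of 32 lay above 0, against 53.1% of all genes. In W18A against CUP1_WT the 3 counts were also 0, the median was -0.01 and the changes ran from -0.05 to 0.05, where 0% of all genes were called and 13 had an unadjusted p under 0.05. RPN4 was at 403, 588 and 626 CPM in W18A, which overlaps CUP1_WT.

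In W5A nearly all subunit genes were lower. Against CUP1_WT, 30 of 32 subunit genes were called lower and none higher, where 39% of all genes were called, 20.9% higher and 18.1% lower. The changes ran from -0.77 to -0.28 with a median of -0.51, and the median of all genes was 0.03. All genes of the alpha ring, the base ATPases (RPT5 included) and the lid were called, as were 6 of 7 beta-ring genes and 3 of the 4 other base genes. In 31 of the 32 genes all W5A libraries lay below all CUP1_WT libraries, but the share of all genes that did so was not counted.

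The greatest fall was that of RPN2. It was at 1035, 964 and 938 CPM in W5A and at 1726, 1894 and 1424 in CUP1_WT, without overlap, a log2 change of -0.77 ± 0.16 (adjusted p = 0.00069). The smallest change was that of RPN13, which was at 207, 147 and 152 CPM in W5A and at 200, 197 and 210 in CUP1_WT. Its replicate 1 in W5A lay inside the CUP1_WT range, and the change of -0.28 ± 0.16 was not called (adjusted p = 0.162), though it was with the replicate number as a block (adjusted p = 0.0399).

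Among the active subunits, PRE2 was at 588, 424 and 422 CPM in W5A and fell by 0.57 on the log2 scale (adjusted p = 0.014), a call lost without replicate 2 (0.069) or replicate 3 (0.0603) of W5A. PUP1 was at 351, 281 and 254 CPM and fell by 0.55 (adjusted p = 0.0152). PRE3 was at 423, 320 and 276 CPM, below every CUP1_WT library, and its change of -0.48 ± 0.22 was called only with the replicate block (adjusted p = 0.0158 with it and 0.0849 without). In all 3 genes replicate 1 was the highest library of W5A.

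RPN4 did not pass, at 396, 387 and 420 CPM in W5A and a log2 change of -0.25 ± 0.19 (adjusted p = 0.313), although all W5A libraries lay below all CUP1_WT libraries. Middle-meiosis markers were lower too, 10 of 10 called with a median of -3.94, where 18.1% of all genes were called lower. The part of these markers in the fall was not tested. Without replicate 2 or without replicate 3 of W5A the count of subunit genes called lower dropped to 15. The level differed from that of the CUP1_WT library of the same number by -0.30, -0.68 and -0.64.

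W5A_W18A, compared with the same CUP1_WT libraries, gave 22 of 32 subunit genes called lower and none higher, where 33.2% of all genes were called, 16.7% higher and 16.5% lower. The median was -0.48 and the changes ran from -0.67 to -0.28. In all 32 genes the W5A_W18A libraries lay below the CUP1_WT libraries, but the share of all genes that did so was not counted. In the lid 6 of 8 were called. The same-numbered differences in level were close to each other, at -0.50, -0.46 and -0.46. RPN2 again had the greatest fall (-0.67, adjusted p = 0.0029), and RPN4 was at 466, 493 and 485 CPM, inside the CUP1_WT range. The count was 11 without replicate 1 and 9 without replicate 2 of CUP1_WT, and 8 without replicate 1 and 12 without replicate 3 of W5A_W18A.

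The subunit level of del110_155 was in the low group with pho92_null, W5A and W5A_W18A. In del110_155 against CUP1_WT, 29 of 32 genes were called lower and 1, RPT5, higher, where 45.8% of all genes were called, 22.3% higher and 23.5% lower. The median change was -0.60, and 0.02 over all genes. All alpha-ring and lid genes were called lower, with medians of -0.60 and -0.76, as were 6 of 7 beta-ring genes, 5 of 6 base ATPases and 3 of the 4 other base genes.

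PRE2 had the greatest fall, at 457, 373 and 280 CPM against 685 or more in CUP1_WT, a log2 change of -0.95 ± 0.18 (adjusted p = 0.000166). PRE3 was at 376, 268 and 175 CPM and fell by 0.84 on the log2 scale (adjusted p = 0.00299). PUP1 was at 439, 345 and 219 CPM, with replicate 1 inside the CUP1_WT range, and its change of -0.42 ± 0.18 missed the threshold (adjusted p = 0.055) and passed with the replicate block (0.034). In each of these genes replicate 3 was the lowest library.

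RPN4 did not follow the subunit genes in this strain. It was at 385, 472 and 530 CPM, which spans the CUP1_WT range, and the change was -0.06 ± 0.19 (adjusted p = 0.825). Middle-meiosis markers were called lower in 9 of 10, early-meiosis markers in 5 of 10 and haploid markers in 3 of 6, where 23.5% of all genes were called lower. The part of these markers in the result was not tested. Replicate 3, the library with the lowest subunit level (8.33), had an early-meiosis sum of 4612 CPM against 16305 and 17654 in replicates 1 and 2, and a middle-meiosis sum of 253 against 1236 and 1234. Without replicate 3 of del110_155 the count of subunit genes called was 18 (17 lower), and a fit of only the 6 libraries called 2. Calls over all genes fell from 2676 to 478 in the latter fit. The same-numbered differences in level were -0.29, -0.59 and -0.89.

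The other 6 variants changed few subunit genes past the threshold, and in 5 of them RPT5 was the gene called higher. W177A, whose tryptophan lies in the m6A-binding domain, had 1 gene called higher and 1 lower, where 20.5% of all genes were called, 13.5% higher and 7.04% lower. The deletion strain del1_70 had 1 and 1, where 9.26% of all genes were called, 6.68% higher and 2.59% lower. In del28_52 there were 1 and 0, where 19.3% were called, 11% higher and 8.27% lower, and in del28_52_130_155 there were 1 and 2, where 21.6% were called, 12.4% higher and 9.18% lower. For W5A_W18A_del28_52 the counts were 0 and 3, where 11.5% were called, 8.13% higher and 3.41% lower, and for W5A_W18A_del28_52_110_155 they were 1 and 2, where 13% were called, 8.49% higher and 4.47% lower. These counts of 0 to 3 genes among 32 are too small to be set apart from their shares. The changes of single genes were nonetheless mostly below 0, in 29, 27, 28, 30, 31 and 30 of the 32 genes in the order W177A, del1_70, del28_52, del28_52_130_155, W5A_W18A_del28_52 and W5A_W18A_del28_52_110_155, against 48.2% to 53.2% of all genes. All 3 libraries lay below all CUP1_WT libraries in 7, 10, 22, 18, 23 and 19 of the 32 genes in the same order. The share of all genes that lay apart in this way was not counted, so these counts cannot be set against it. The median log2 changes of the 32 genes were -0.20, -0.15, -0.24, -0.25, -0.36 and -0.25, again in that order. In W177A the level differed from that of the same-numbered CUP1_WT library by 0.05, -0.08 and -0.48, so the fall lay mostly in replicate 3. In the other strains of this group each such difference was below 0, from -0.59 to -0.06. With the replicate block, for which same-numbered libraries were found to pair, the counts were 1 higher and 8 lower in del28_52 and 1 higher and 4 lower in W5A_W18A_del28_52_110_155. The block also raised the calls over all 5840 genes, from 1127 to 1949 in del28_52 and from 757 to 1104 in W5A_W18A_del28_52_110_155. Of these block calls 48.6% and 61.9% were higher.

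PRE2 was the gene with the greatest fall in all 5 of these strains that had a gene called lower. It was at 567, 578 and 347 CPM in W177A (-0.53, adjusted p = 0.036), and without replicate 3 of W177A the change was -0.29 (adjusted p = 0.322). It was at 470, 566 and 409 CPM in del1_70 (-0.56, adjusted p = 0.0499), a call lost when any library other than replicate 2 of del1_70 was left out. It was at 524, 491 and 423 CPM in del28_52_130_155 (-0.56, adjusted p = 0.0274), 509, 419 and 463 in W5A_W18A_del28_52 (-0.60, adjusted p = 0.0279) and 517, 449 and 441 in W5A_W18A_del28_52_110_155 (-0.59, adjusted p = 0.0294). In each of the 5 strains all 3 libraries lay below the 685 CPM of the lowest CUP1_WT library, as did the 3 WT libraries given above. CUP1_WT is the control shared by these comparisons and had the highest strain mean of PRE2. None of the 5 strains was compared with WT. Each of these 5 calls was lost without replicate 1 or without replicate 2 of CUP1_WT (adjusted p from 0.0539 to 0.141), and each also without some library of its own strain. RPN11 was the other gene called lower in the last 3 strains, at -0.39, -0.53 and -0.48, and RPN10, a ubiquitin receptor, was called in W5A_W18A_del28_52 at -0.38, a call lost without replicate 2 of CUP1_WT (0.0611) or replicate 1 (0.092) or replicate 2 (0.275) of that strain.

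Single libraries moved these counts. Of the 2 genes called in W177A, 1 was left without replicate 1 or 2 of CUP1_WT or replicate 3 of W177A, and there were 4 without replicate 2 of W177A. In del28_52_130_155 the count was 1 without replicate 1 or 2 of CUP1_WT or replicate 2 or 3 of its own. In W5A_W18A_del28_52_110_155 it was 1 without replicate 2 of CUP1_WT or replicate 3 of its own. In W5A_W18A_del28_52 it was 0 without replicate 2 of that strain, 14 without replicate 3, 1 without replicate 2 of CUP1_WT and 8 without replicate 3 of CUP1_WT, and with median-of-ratios scaling it was 9. That scaling also moved the share of all called genes that were higher from 70.5% to 52.7% in this comparison.

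**Figure D4:**
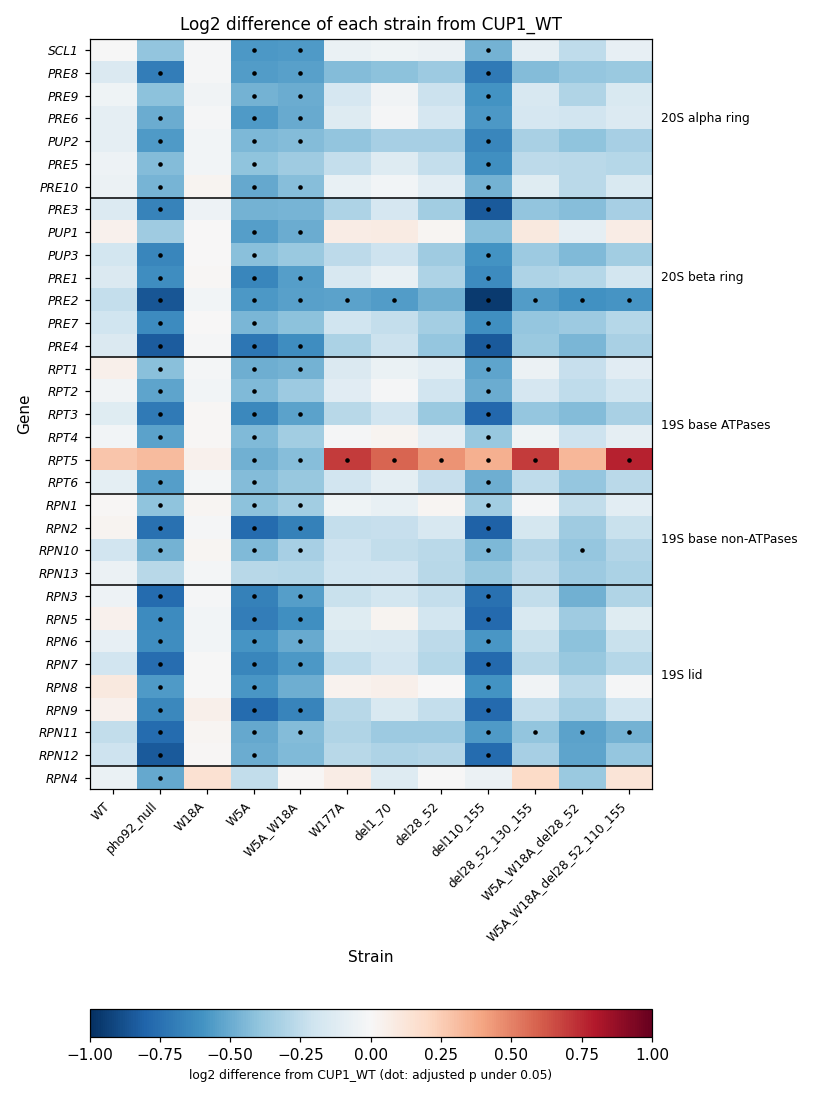
Log2 difference of each strain (columns) from CUP1_WT for the 32 subunit genes and RPN4 (rows, ordered by place in the particle), from -1 in blue to 1 in red. A dot marks an adjusted p under 0.05. RPT5 is the row that is higher than CUP1_WT in del110_155 (0.35) and in W177A (0.70) and lower in W5A (-0.48).

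RPT5 encodes an ATPase of the base whose tail docks into the alpha ring, and it had a pattern of its own. Its strain means spanned 1.25 on the log2 scale, against 0.95 for PRE2 and 0.38 for RPN13, the next widest and the narrowest of the 32 genes. It was at 471, 461 and 454 CPM in CUP1_WT and at 472, 492 and 463 in W18A, which overlap. It was higher in WT, at 578, 530 and 569, and in pho92_null, at 754, 507 and 502, so that every library of these strains lay above every CUP1_WT library. Neither difference was called, with log2 changes of -0.27 ± 0.14 for CUP1_WT against WT (adjusted p = 0.527) and -0.32 ± 0.14 against pho92_null (adjusted p = 0.0726).

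W5A and W5A_W18A had the lowest RPT5. It was at 380, 319 and 297 CPM in W5A (-0.48, adjusted p = 0.00903) and at 344, 325 and 364 in W5A_W18A (-0.42, adjusted p = 0.023), below every library of the other 11 strains. The call in W5A_W18A was lost without replicate 1 or replicate 2 of either strain compared, with adjusted p-values from 0.0522 to 0.078.

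RPT5 was called higher than in CUP1_WT in 6 variants, among them the strain that joins W5A and W18A with 2 deletions. It was at 843, 796 and 631 CPM in W177A (0.70, adjusted p = 0.000676), at 798, 800 and 658 in del28_52_130_155 (0.70, adjusted p = 0.000709) and at 821, 800 and 741 in W5A_W18A_del28_52_110_155 (0.77, adjusted p = 0.000334). These 3 calls were kept without each library in turn. It was at 764, 701 and 617 CPM in del1_70 (0.58, adjusted p = 0.00729). It was at 651, 618 and 626 in del28_52 (0.45, adjusted p = 0.0269), a call lost without any 1 of the 6 libraries. It was at 706, 620 and 469 in del110_155 (0.35, adjusted p = 0.0437), where replicate 3 lay inside the CUP1_WT range and the call was lost without any of the other 5 libraries and with median-of-ratios scaling (adjusted p = 0.0628). W5A_W18A_del28_52 had 594, 517 and 645 CPM, above every CUP1_WT library, and was not called (0.34, adjusted p = 0.123). In the order of their mean CPM, W5A overlaps W5A_W18A, CUP1_WT overlaps W18A, and every strain from WT up to W5A_W18A_del28_52_110_155 overlaps its neighbours, while there is a gap between W5A_W18A and CUP1_WT and between W18A and WT.

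Since RPT5 fell in W5A and rose in del110_155, the 2 strains were compared directly, a comparison chosen after these values were seen. RPT5 was lower in W5A by 0.84 on the log2 scale (-0.84 ± 0.14, adjusted p = 0.000212) and was the 1 subunit gene of 32 called, where 16.9% of all genes were called, 9.13% higher and 7.81% lower. The median of the 32 genes was 0.06. In a fit of the 6 libraries alone RPT5 missed the threshold (-0.85, adjusted p = 0.141).

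**Figure D5:**
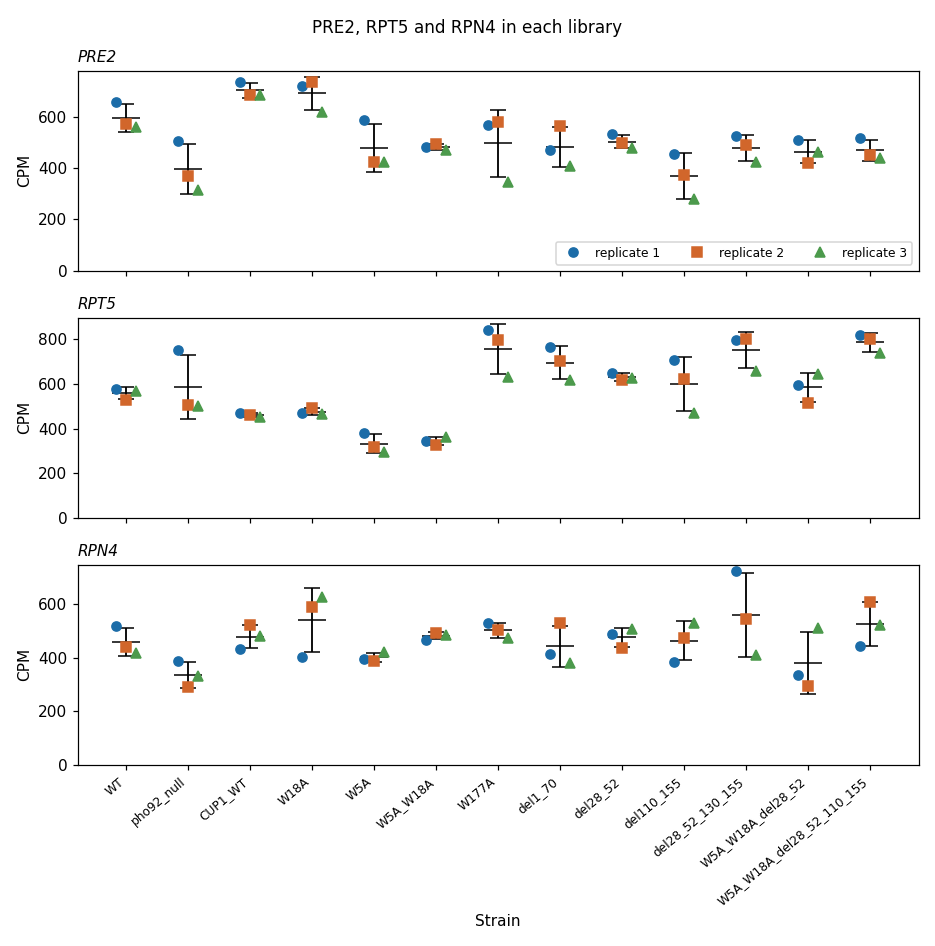
CPM of PRE2, RPT5 and RPN4 in each library (y axes, from 0) by strain (x axis), with symbols for the replicate number and bars for the mean and SD of 3 libraries. PRE2 is highest in CUP1_WT and W18A, RPT5 is lowest in W5A and W5A_W18A and highest in W5A_W18A_del28_52_110_155, and RPN4 overlaps between CUP1_WT and W5A_W18A.

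The coding sequences were searched for the yeast m6A consensus, written as ANAGACNNT or ANGGACNNT. Matches on the coding strand were found in 10 of the 32 subunit genes, 1 match in 5 genes, 2 in 4 genes and 4 in RPT5, which has none on its opposite strand. Among coding sequences within 10% of the length of each gene, the share with a match ran from 30.8% (for RPN13) to 80.8% (for RPN1). The 10 of 32 is thus no excess of genes with a match. Of 691 coding sequences within 10% of the length of RPT5, 55.4% had at least 1 match and 1.45% at least 4. RPT5 is the gene with the most matches among the 32, so the latter share is no test. Untranslated regions were not searched. The 4 matches are shown with 10 bases on each side because no other subunit gene has as many, named here by the position of their first base in the 1305 bases of the coding sequence, with the consensus in capitals:
RPT5 at 146: tctgaattgcAAAGACTGTcccatgaaaa
RPT5 at 187: cgagaagattAAGGACAATaaggaaaaaa
RPT5 at 215: atcaagaataATAGACAGTtaccgtacct
RPT5 at 372: cttcttctagACAGACTGTtttcttgccc
They lie on the plus strand at chrXV:545164-545192, chrXV:545205-545233, chrXV:545233-545261 and chrXV:545390-545418 (R64). A match is a stretch of letters and no measure of methylation, which was not analysed here. PRE2 and RPN11 hold no match.

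The combined strains were set against their parts. For W5A_W18A_del28_52, the departure from the sum of the W5A_W18A and del28_52 changes was above 0 in all 32 subunit genes, against 45.7% of all genes, with a median of 0.36. None of the 32 was called by limma or by limma-voom, where limma called 12.6% of all genes, 8.87% higher and 3.68% lower. An unadjusted p under 0.05 was found for 7 of the 32 and for 1696 of all 5840 genes, so the 7 are no excess. Those 733 calls over all genes became 25 without replicate 1 of CUP1_WT, 46 without replicate 2 and 1277 without replicate 3 of CUP1_WT, and 75 without replicate 3 of del28_52. They became 316 to 429 without any 1 of the W5A_W18A libraries, replicate 2 of del28_52, or replicate 1 or 2 of W5A_W18A_del28_52. The middle-meiosis markers departed by a median of 4.76, with 8 of 10 called higher, and their part was not tested.

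W5A_W18A_del28_52_110_155 was also compared with del110_155, after their values were seen. All 32 subunit genes had changes above 0, from 0.07 to 0.65 with a median of 0.39, and 10 were called higher and none lower. Of all genes 31% were called in either direction, about the share that 10 of 32 makes, with 16% higher and 14.9% lower. RPN5, a lid subunit, led at 0.65 ± 0.19 (adjusted p = 0.0143), and RPT5 rose by 0.41 ± 0.14 (adjusted p = 0.0305). The count was 0 without replicate 3 of del110_155 or replicate 2 of W5A_W18A_del28_52_110_155, 3 without replicate 1 of the latter, 27 without replicate 1 of del110_155 and 0 in a fit of the 6 libraries alone.

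Of 12 assembly factors and activators, 2 were called higher and 1 lower in CUP1_WT against pho92_null, where 39.9% of all genes were called. UMP1, a chaperone of core maturation, rose by 0.72 ± 0.18 (adjusted p = 0.00215) and SEM1, a small lid protein outside the symbols chosen here, rose by 0.58 (adjusted p = 0.0199), while BLM10, an activator that binds the end of the core, fell by 0.46 (adjusted p = 0.0272). In W5A, UMP1 (-0.55), SEM1 (-0.53) and ADD66 (-0.42), a core assembly chaperone, were called lower, and POC4 (0.52), another such chaperone, was called higher, 4 of 12 where 39% of all genes were called. In del110_155, 5 were called lower and 2 higher, where 45.8% of all genes were called, led by UMP1 at -0.89 (adjusted p = 0.000224). BLM10 was called higher than in CUP1_WT in 6 variants, those in which RPT5 was called higher. Its log2 changes were 0.98 for W177A (adjusted p = 6.99e-05), 0.88 for del28_52, 0.87 for del28_52_130_155, 0.76 for W5A_W18A_del28_52_110_155, 0.70 for del1_70 and 0.44 for del110_155.

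Of 20 genes for ubiquitin, the segregase Cdc48 and shuttle factors, 7 were called higher and 3 lower in CUP1_WT against pho92_null, where 39.9% of all genes were called, 19.2% higher. They were led by UFD1, a cofactor of Cdc48, at 0.92 (adjusted p = 3.61e-05), DSK2, a shuttle that carries ubiquitin chains to the proteasome, at 0.69, UBP6, a deubiquitinase on the base, at 0.65, and HRD1, a ubiquitin ligase of the endoplasmic reticulum, at 0.63. In W5A, 10 were called lower and 1 higher, where 39% of all genes were called, 18.1% lower. The former were led by UFD1 (-0.73), UFD2, a chain-elongating ligase (-0.69), and DSK2 (-0.62). UBC5, a ubiquitin-conjugating enzyme, was called lower (-0.61), a value that is uncertain because its paralog UBC4 is nearly identical. In del110_155, 8 were called lower and 3 higher, where 45.8% of all genes were called, 23.5% lower, with UFD1 at -0.87 and UBC4 at 0.99, the latter subject to the same limit.

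Of 7 regulators of RPN4, changes ran from -0.35 to 0.45 in CUP1_WT against pho92_null. In del110_155 against CUP1_WT, 3 were called lower and 1 higher, 4 of 7 where 45.8% of all genes were called. UBR2, a ubiquitin ligase that targets Rpn4, was at -0.85 (adjusted p = 0.0104) and its partner MUB1 at -0.64 (adjusted p = 0.0057). HSF1, the heat-shock factor, was at -0.40, and RAD6, the conjugating enzyme that works with Ubr2, was at 0.42.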

How the data were processed

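The data are RNA sequencing counts of 39 libraries. The authors deposited 1 table in which the library columns hold whole-number counts for 6186 features below 45 annotation lines. The submitters' processing notes name STAR 2.7.10a, RSEM 1.3.1 and DESeq2 1.48.1, without role or order. Build, annotation and strand setting are not given in the sources used here. IDs were matched to symbols through NCBI RefSeq for R64, and 5630 of 6186 matched. Because the columns mix counts with annotation values, the deposited counts were tested with limma 3.58.1 (R 4.3.3) and not with a count model. The filter kept 5840 features that summed to 15 counts or more and had, in 3 or more libraries, the CPM that 10 counts make in a library of median size. Counts per 1e+06 (CPM) and log2 CPM used trimmed-mean (TMM) scaling and a prior count of 2. One limma-trend model with strain as its factor was fitted to all 39 libraries, and p-values were Benjamini-Hochberg adjusted over all 5840 genes of a comparison, with a call at an adjusted p under 0.05. The code was tested on simulated data. The depth is the total count per library, 20694394 in the median.

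Strains and replicate numbers come from the titles. The numbers were taken to pair libraries where all 3 same-numbered libraries of the strains compared deviated together from their strain means (every correlation over 0.1), which held in 6 of 13 comparisons: CUP1_WT against WT, and W18A, W5A, del28_52, del110_155 and W5A_W18A_del28_52_110_155 against CUP1_WT. A second fit took the number as a block. Other settings were median-of-ratios scaling, no filter, a prior count of 0.5, limma-voom, fits of only the strains compared and leaving out each library.

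The members, gene lists and settings were chosen with earlier results of these data known, and the lists are no independent support. Values in every library are given for RPN4, the 3 active-site subunits, and the subunits with the greatest and smallest change in CUP1_WT against pho92_null and in W5A against CUP1_WT. Elsewhere the called subunits with the greatest rise and fall are named, and at most 4 called genes of each other list. Values of RPN11, RPN12, PRE8, RPT3, BLM10 in del110_155 and RPT5 in all strains, and the direct comparisons with del110_155, were added after the values were seen. Coding lengths and sequences are from RefSeq R64.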

Additional observations from a re-analysis of the deposited data

Results flagged for a closer look

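RPT5 differed between 2 variant strains that both lowered the other subunit genes. Its log2 change in W5A against del110_155 was -0.84 (limma, adjusted p = 0.000212), with all 3 W5A libraries below all 3 del110_155 libraries, and leaving out each library gave values from -1.002 to -0.71, all past the threshold. In a fit of only these 6 libraries the adjusted p was 0.141.

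W5A_W18A_del28_52_110_155 and del110_155 both lack residues 110 to 155 by their titles and differed in 10 subunit genes, all higher in the former. In this comparison 31% of all genes were called in either direction, about the share that 10 of 32 makes, and 16% were called higher. That count depended on single libraries, as given above. The genotype of the former does not name its substitutions.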

How the results depend on the processing

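Of the log2 changes of named subunit genes and RPN4, recomputed under each setting, 243 with another setting and 191 without 1 library kept their direction and their side of the threshold, 19 and 67 lost a call, and 8 and 8 gained one. Fits of only the strains compared, which have fewer samples, gave 1 for WT against pho92_null, 9 for CUP1_WT against pho92_null, and, against CUP1_WT, 1 for W177A, 0 for del1_70, 13 for del28_52 (1 higher), 2 for del110_155, 0 for W5A_W18A_del28_52 and 1 for W5A_W18A_del28_52_110_155. They gave 2 for the departure from the sum and 0 for each of W5A and W5A_W18A_del28_52_110_155 against del110_155. Over all genes these fits called 427, 940, 619, 0, 1264, 478, 0 and 70 in the same order. They called 1071 for the departure and 0 against del110_155. The replicate block gave 4 for W177A, 9 for del28_52, 8 for del28_52_130_155, 14 for W5A_W18A_del28_52, 5 for W5A_W18A_del28_52_110_155 and 4 for the departure, and against del110_155 it gave 2 for W5A and 23 for W5A_W18A_del28_52_110_155. Over all 5840 genes the block called 1907, 1949, 2041, 1231 and 1104 for these strains in that order and 1399 for the departure. Against del110_155 it called 1387 and 2456 of all genes. Where the numbers did not pair libraries it also called PRE3 (adjusted p = 0.00929) and PUP1 (0.0485) in WT against pho92_null, RPT5 in CUP1_WT against pho92_null (0.0289) and RPT5 in W5A_W18A_del28_52 (0.0452). Over all strains, deviations correlated by 0.29 on average for the same number and by -0.14 for different numbers.

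Median-of-ratios scaling gave 5 for del28_52_130_155 and 9 for W5A_W18A_del28_52, and no filter gave 9 for the latter. A prior count of 0.5 and limma-voom each gave 1 for del1_70. The cause of these moves was not tested.

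Leaving out 1 library gave 5 to 30 for WT and 17 to 31 for CUP1_WT against pho92_null, 15 to 32 for W5A, 8 to 20 for W5A_W18A, 1 to 4 for W177A, 1 to 2 for del1_70, 0 to 1 for del28_52, 18 to 31 for del110_155, 1 to 4 for del28_52_130_155, 0 to 14 for W5A_W18A_del28_52, 1 to 3 for W5A_W18A_del28_52_110_155, and against del110_155 1 to 4 for W5A and 0 to 27 for W5A_W18A_del28_52_110_155. CUP1_WT against WT, W18A and the departure stayed at 0. The sign turned for RPT5 in WT against pho92_null, at 0.02 without replicate 2 of WT and 0.148 without replicate 1 of pho92_null, the range over all libraries being -0.146 to 0.148, and for RPN4 in del110_155, at 0.0075 without replicate 2 of CUP1_WT and 0.0687 without replicate 1 of del110_155, in a range of -0.162 to 0.0687. Neither value was called in any of these. The lowest count behind a subunit value was 2646, so counting error is small beside the spread between libraries.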
